A study of Rattus norvegicus with 21 samples.

Results

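Rat pancreatic islets kept for 3 h in glucolipotoxic medium (GLT) with compound D were compared with islets kept for 3 h in control medium. The GLT islets had 27 mM glucose, 300 µM palmitate (PA, a saturated fatty acid) and cpd D at 300 nM. The control islets had 11 mM glucose without palmitate. All islets came from Sprague Dawley rats. In each of 3 separate isolations, called preparations here, the islets of 8 rats were pooled and divided over the treatments, so that each preparation gave 1 library per group. The comparison was chosen by treatment and time from the labels, and it used 6 of the 21 libraries of the series, 3 per group, paired by preparation. Neither the structure nor the target of cpd D is named in the labels. High glucose, palmitate and cpd D were added together, so what each of them contributed to a difference from control cannot be told apart in this comparison.

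RNA was measured by sequencing as counts of reads per gene. The GLT + cpd D libraries held 24146044, 30936937 and 24110969 counts in genes, and the control libraries 25678623, 27794563 and 32222214. Levels are given as CPM (counts-per-million, after TMM scaling of the library size), for preparations 1, 2 and 3 in that order. At these depths 3 counts correspond to 0.0931 to 0.124 CPM. For 6 of the 21 libraries the sample sheet and the records give different treatments, and 0 of those are among the libraries compared. They entered the fit through the spread, the preparation terms, the filter on low counts and the scaling. Whole islets hold beta, alpha, delta and PP cells besides duct, vascular, stromal and immune cells, and the hormone genes were among the most abundant: the insulin genes Ins1 and Ins2 took 11.5%, 28.7% and 17.0% of the counts in GLT + cpd D and 12.7%, 33.4% and 24.5% in control. The ribosomal RNA gene Rn45s took 7.88%, 1.37% and 5.64% of the counts in GLT + cpd D and 7.37%, 1.80% and 3.11% in control, and was lowest in preparation 2 in both groups. Control replicate 3 stood apart in genes of the cytokine and interferon responses, described with those genes.

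Islet cells take up glucose in proportion to its concentration, and the sugar phosphates formed inside activate the transcription factors ChREBP and MondoA. Both work with the partner Mlx on carbohydrate response elements, and Txnip and Arrdc4 are known targets. Palmitate is taken up as well, is activated to an acyl-CoA and can serve as a ligand of the PPAR nuclear receptors, whose targets include the genes of fatty acid oxidation. Cholesterol synthesis is run by SREBP2, which the sterol content of the endoplasmic reticulum holds back through Insig proteins.

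The main result was a rise of 12 genes and a fall of 1 gene with GLT + cpd D. Those that rose were Txnip, Rgs16, Klf11, Fbxo34, Cpt1a, Prok2, Ttc25, Atp12a, Ssfa2, Qrfpr, Coq10b and Gpr6. The 13 genes are 0.103% of the 12576 genes tested with edgeR's quasi-likelihood test at a Benjamini-Hochberg adjusted p below 0.05, with 0.0954% of genes higher and 0.00795% lower. All 13 had groups that did not overlap, which held for 7.31% of all genes tested. All 3 GLT + cpd D libraries were above all controls for 4.2% of genes and below them for 3.11%. The unadjusted p was below 0.05 for 6.5% of genes, 3.68% higher and 2.81% lower. DESeq2 with the same design called 108 genes (0.859%), 88 higher (0.7%) and 20 lower (0.159%), among them all 13. The count depended on single libraries: it was 5 without GLT + cpd D replicate 1, 5 without control replicate 1, 7 without control replicate 3 and 30 without control replicate 2. It was 103 without preparation 2, 1 without preparation 1 or 3, and 25 without the 24 h GLT + cpd E library of preparation 1, which belongs to neither group. A fit over the 15 libraries with undisputed labels called 3 genes, Txnip and Rgs16 among them.

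**Figure D1:**
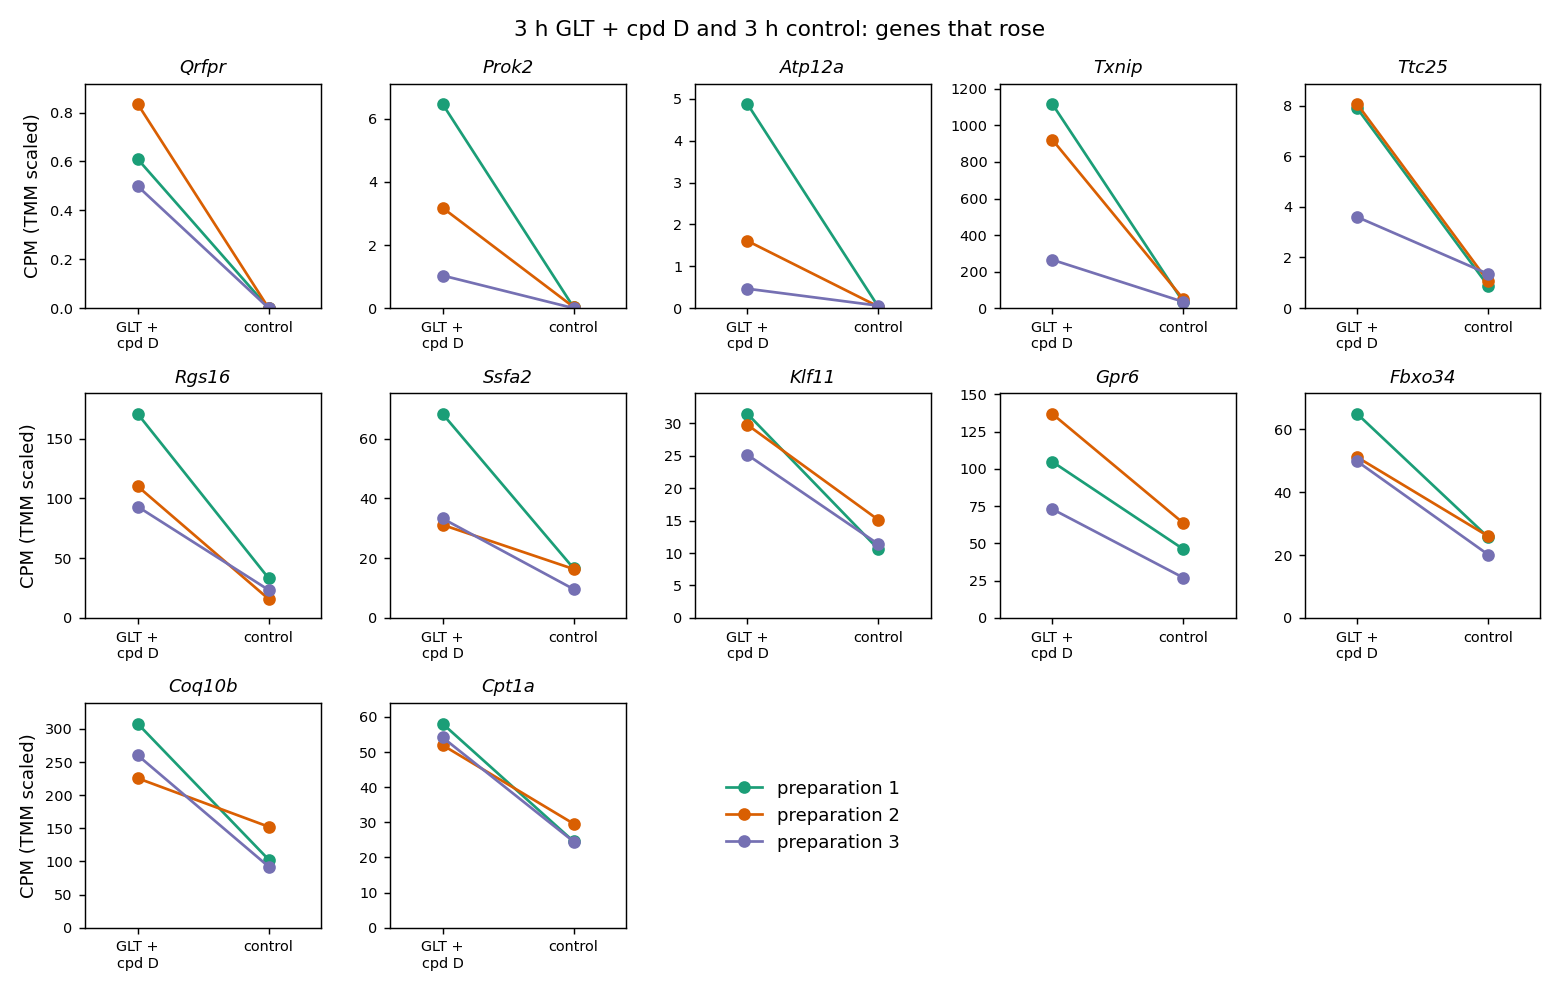
Level of each of the 12 genes that rose in the 3 h GLT + cpd D library (left) and the 3 h control library (right) of the same preparation, in CPM on a linear axis from 0; each line joins the libraries of 1 preparation. All 3 lines of each gene go up to the left, from control to GLT + cpd D.

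Txnip encodes the thioredoxin-interacting protein, an arrestin-fold protein that binds thioredoxin and limits glucose uptake. It had 1117, 922 and 265 CPM in GLT + cpd D, against 33.9, 50.3 and 34.4 CPM in control. All GLT + cpd D libraries were far above all controls, with preparation 3 the lowest of them. The fitted log2 change was 4.12 ± 0.38 (SE, n = 3 per group), a 17.4-fold rise with an adjusted p of 2.28e-04. Within preparations 1, 2 and 3 the log2 ratios were 5.04, 4.19 and 2.94. Txnip passed the test under all 20 alternative settings of the fit, more than any other of the 13 genes.

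Rgs16 and Gpr6 belong to signalling by G protein-coupled receptors. Rgs16, a regulator of G protein signalling that speeds GTP hydrolysis on Gi and Gq alpha subunits, had 171, 110 and 93.0 CPM in GLT + cpd D, against 33.2, 15.8 and 23.4 CPM in control. The lowest GLT + cpd D library was well above the highest control, and the log2 change was 2.38 ± 0.27 (SE), a 5.19-fold rise, with an adjusted p of 0.00194. Gpr6, an orphan receptor that raises cAMP, had 105, 137 and 73.0 CPM in GLT + cpd D, against 46.2, 63.7 and 27.0 CPM in control. Preparation 2 was the highest in both groups, and the log2 change of 1.22 ± 0.21 (SE) had the highest adjusted p of the 13 genes, 0.0416.

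Transcripts for enzymes and mitochondrial proteins of lipid and redox metabolism were among those that rose. Cpt1a, the liver form of carnitine palmitoyltransferase, lets long-chain fatty acids enter mitochondria for oxidation and is a PPAR target. It had 58.0, 52.0 and 54.1 CPM in GLT + cpd D, against 24.6, 29.6 and 24.5 CPM in control. Neither group spread by much around its mean, and the log2 change was 1.06 ± 0.16 (SE) with an adjusted p of 0.0121. Coq10b, a mitochondrial protein that binds coenzyme Q, had 308, 226 and 260 CPM in GLT + cpd D, against 103, 152 and 92.3 CPM in control. The groups were closest in preparation 2, and the log2 change was 1.19 ± 0.20 (SE) with an adjusted p of 0.0356.

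Transcription and protein turnover were represented by Klf11 and Fbxo34. Klf11, a Krüppel-like zinc finger factor that in human beta cells binds the insulin promoter, had 31.4, 29.7 and 25.1 CPM in GLT + cpd D, against 10.6, 15.1 and 11.4 CPM in control. The ranges were narrow in both groups and well separated, and the log2 change was 1.22 ± 0.16 (SE) with an adjusted p of 0.00421. Fbxo34, an F-box protein of the kind that brings substrates to SCF ubiquitin ligases, had 64.9, 51.1 and 49.8 CPM in GLT + cpd D, against 25.7, 26.0 and 20.1 CPM in control. Every GLT + cpd D library was above every control, and the log2 change was 1.20 ± 0.16 (SE) with an adjusted p of 0.00633. Ssfa2, whose current symbol is Itprid2, encodes a protein related to those that bind the inositol trisphosphate receptor. It had 68.3, 31.1 and 33.3 CPM in GLT + cpd D, against 16.6, 16.4 and 9.66 CPM in control, a log2 change of 1.59 ± 0.26 (SE) with an adjusted p of 0.0284. Preparation 1 was the highest GLT + cpd D library, and the lowest one was still above the highest control.

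The remaining 4 genes that rose were rare in control islets. Ttc25, whose current symbol is Odad4 and whose protein docks outer dynein arms on cilia, had 7.89, 8.06 and 3.60 CPM in GLT + cpd D, against 0.879, 1.06 and 1.35 CPM in control. Its log2 change was 2.52 ± 0.40 (SE) with an adjusted p of 0.0209, and preparation 3 gave the lowest GLT + cpd D value. Prok2, a secreted ligand of the prokineticin receptors, had 6.47, 3.18 and 1.03 CPM in GLT + cpd D, against 0.0314, 0.0366 and 0 CPM in control. These were 319 counts in GLT + cpd D and 2 in control, a ratio of 168 with a 95% interval from 46.0 to 1390 that covers counting error only. The adjusted p was 0.0121. Prok2 was below the level of 3 counts in every control library and above it in every GLT + cpd D library.

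Atp12a, the non-gastric proton-potassium ATPase, had 4.88, 1.61 and 0.463 CPM in GLT + cpd D, against 0.0314, 0.0366 and 0.0587 CPM in control. The sums were 207 counts in GLT + cpd D and 4 in control, a ratio of 54.4 with a 95% counting interval from 20.9 to 201, and the adjusted p was 0.0222. Preparation 1 was the highest and preparation 3 the lowest GLT + cpd D library, as for Txnip, Rgs16 and Prok2, and all 3 were above every control. Qrfpr, the receptor of the neuropeptide QRFP, had 0.610, 0.835 and 0.499 CPM in GLT + cpd D and no count in any of the 3 control libraries. With the control group set to a floor of 3 counts, the 58 counts in GLT + cpd D gave a ratio of 20.3. The adjusted p was 0.0315. From counting error alone the lower 95% limit of the ratio is 16.0. Qrfpr passed under 6 of the 19 alternatives in which it could be fitted, the fewest of the 13 genes.

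Alpha cells, the glucagon cells of the islet, were followed by their marker genes. In whole islets fewer cells of a type and less RNA per cell cannot be told apart, so levels of a cell type's genes cover both. Gcg, which codes for glucagon, had 16351, 18495 and 11948 CPM in GLT + cpd D and 13623, 16717 and 17093 CPM in control, with a log2 change of -0.08 ± 0.23 (SE; 95% interval -0.57 to 0.40).

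Irx1 and Irx2, transcription factors of alpha cells, are shown here after their values were seen. Irx1 had 9.89, 15.2 and 7.62 CPM in GLT + cpd D and 5.59, 6.62 and 3.76 CPM in control, with groups that did not overlap, but an adjusted p of 0.262 in edgeR and 0.0466 in DESeq2. Irx2 had 16.1, 20.4 and 11.8 CPM in GLT + cpd D and 10.2, 14.7 and 8.25 CPM in control, with overlap. Irx1 and Irx2 were the 2 of 10 tested alpha cell genes that were higher in all 3 preparations, and 5 were lower. Of all genes tested, 13.2% were higher and 15.7% lower in all 3. The median fitted log2 change of the 10 alpha cell genes was -0.47. Within preparations 1, 2 and 3 the medians were -0.29, -0.04 and -0.76. The summed level of the alpha cell genes, most of it glucagon, was 17181, 19251 and 12505 CPM in GLT + cpd D and 14556, 17471 and 17902 CPM in control. The part of cell composition in the results was not tested.

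**Figure D2:**
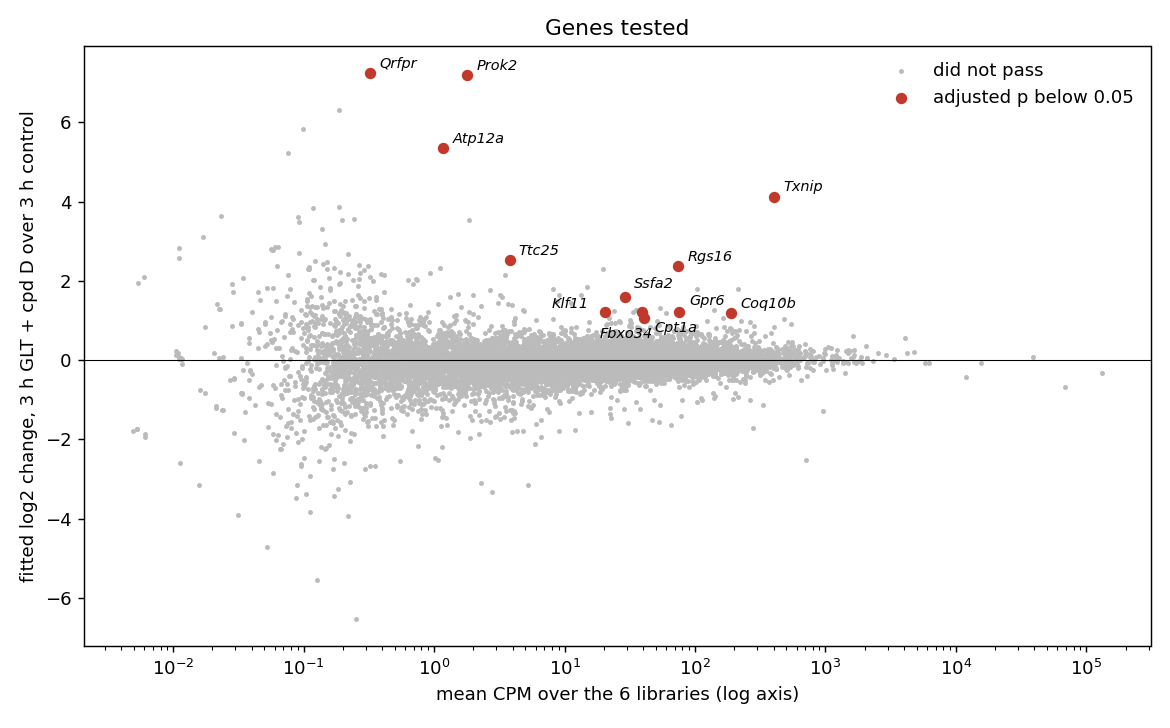
Fitted log2 change of GLT + cpd D over control for genes tested (vertical axis) against the mean level over the 6 libraries in CPM (horizontal log axis); red points are the 12 genes that rose at an adjusted p below 0.05. They span levels from under 1 CPM for Qrfpr to far above that for Txnip.

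The promoters of the genes that passed were read for the letters that the glucose- and fatty acid-responsive factors are known to bind. RefSeq promoters of the rat build GRCr8 were at hand for 10 of the 13 genes. Txnip and Ttc25 had no entry. Each window of 300 bases, 250 before and 50 after the start of the gene, was searched on both strands. The E-box CACGTG, which is the same on both strands, was found in 3 of the 10, or 30%, against 9.16% of the 10175 promoters of genes tested and 6.65% of all 27457. It lay in Klf11, in Prok2 and, after the start, in Ssfa2. A carbohydrate response element, searched as 2 copies of CACGNG with 5 bases between them, was in 0 of the 10 and in 0.0393% of the promoters of genes tested. A PPAR element, searched as 2 copies of AGGTCA with 1 base between them, was in 0 of the 10 and in 0.0491%. The first of these contains E-box letters, so their counts can overlap. The 250 bases before the start are shown for the 2 genes with an E-box there, in capitals, and for Rgs16, the gene with the lowest adjusted p among those with a promoter entry, which held none of the 3 motifs. Klf11 is chr6:47014198-47014447 on the plus strand, with the E-box 21 to 16 bases before the start. Prok2 is chr4:133917934-133918183 on the minus strand, with the E-box 120 to 115 bases before the start. Rgs16 is chr13:68437870-68438119 on the plus strand.
Klf11: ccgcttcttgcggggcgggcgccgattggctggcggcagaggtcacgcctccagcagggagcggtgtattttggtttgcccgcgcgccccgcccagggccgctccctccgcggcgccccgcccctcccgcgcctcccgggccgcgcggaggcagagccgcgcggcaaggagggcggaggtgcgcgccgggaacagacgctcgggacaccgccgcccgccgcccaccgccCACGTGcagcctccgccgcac
Prok2: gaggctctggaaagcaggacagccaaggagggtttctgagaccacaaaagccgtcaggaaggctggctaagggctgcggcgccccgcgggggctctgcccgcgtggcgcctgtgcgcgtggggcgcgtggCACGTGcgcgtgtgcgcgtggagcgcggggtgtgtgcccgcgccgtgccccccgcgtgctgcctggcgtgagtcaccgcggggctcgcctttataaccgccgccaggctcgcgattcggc
Rgs16: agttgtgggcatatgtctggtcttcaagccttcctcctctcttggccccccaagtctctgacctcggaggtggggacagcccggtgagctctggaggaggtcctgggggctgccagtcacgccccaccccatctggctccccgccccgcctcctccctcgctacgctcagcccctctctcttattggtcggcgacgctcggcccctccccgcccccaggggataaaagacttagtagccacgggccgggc

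A further 17 genes came next by unadjusted p, with at least 5 CPM in the mean of 1 group and 1 direction in all 3 preparations, and did not pass, with adjusted p from 0.0571 to 0.105 in edgeR. In 14 of them the fitted level was higher with GLT + cpd D, and in 3, Dctd, Det1 and Tia1, it was lower. Hbegf, a growth factor of the EGF family released from the cell surface, headed them with 29.7, 26.1 and 13.0 CPM in GLT + cpd D and 6.63, 10.5 and 2.79 CPM in control, a log2 change of 1.85 ± 0.34 (SE) and an adjusted p of 0.0571. Its groups did not overlap. G6pc, the catalytic subunit of glucose-6-phosphatase and a known ChREBP target, had 6.37, 8.19 and 2.71 CPM in GLT + cpd D and 1.16, 1.32 and 1.26 CPM in control, with a log2 change of 2.15 ± 0.43 (SE) and an adjusted p of 0.0781. Here too the lowest GLT + cpd D library was above the highest control.

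Of these 17, the cholesterol genes Insig1, Hmgcs1 and Dhcr7 are described with their list. Rgs2, a regulator of G protein signalling like Rgs16, had 67.4, 41.8 and 95.9 CPM in GLT + cpd D and 24.0, 31.0 and 46.6 CPM in control, with overlapping groups and an adjusted p of 0.0984. Cry2, a repressor of the circadian clock, had 220, 86.5 and 176 CPM in GLT + cpd D and 51.2, 46.2 and 37.8 CPM in control, with a log2 change of 1.79 ± 0.36 (SE) and an adjusted p of 0.0839. Preparation 2 was the lowest GLT + cpd D library and still above all controls. Ccrn4l, whose current symbol is Noct and which codes for the rhythmic phosphatase nocturnin, had 109, 135 and 110 CPM in GLT + cpd D and 75.8, 91.4 and 57.4 CPM in control, with an adjusted p of 0.102. The others were Zfand2a, Pxmp4, Rnf39, Hps4, Cln8 and Myo16, with fitted log2 changes from 0.71 for Pxmp4 to 1.48 for Rnf39. Those with lower fitted levels were Dctd, the deoxycytidylate deaminase, at -0.78, Det1, a ubiquitin ligase component, at -0.77, and Tia1, an RNA-binding protein of stress granules, at -0.59.

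The 13 calls were then set in 20 lists of genes by pathway and 11 lists of cell type markers. A list is described by the number of its tested members that passed in edgeR, by the number with the same direction in all 3 preparations, and by its median fitted log2 change, which was -0.04 over all genes tested. In all, 13.2% of genes tested were higher in all 3 preparations and 15.7% lower. Of the 13 genes, Txnip and Rgs16 are in the list of glucose-responsive genes, Rgs16 also in that of MAP kinase and cAMP feedback, and Cpt1a in that of fatty acid oxidation. The other 9 genes that rose are in none of the lists.

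**Figure D3:**
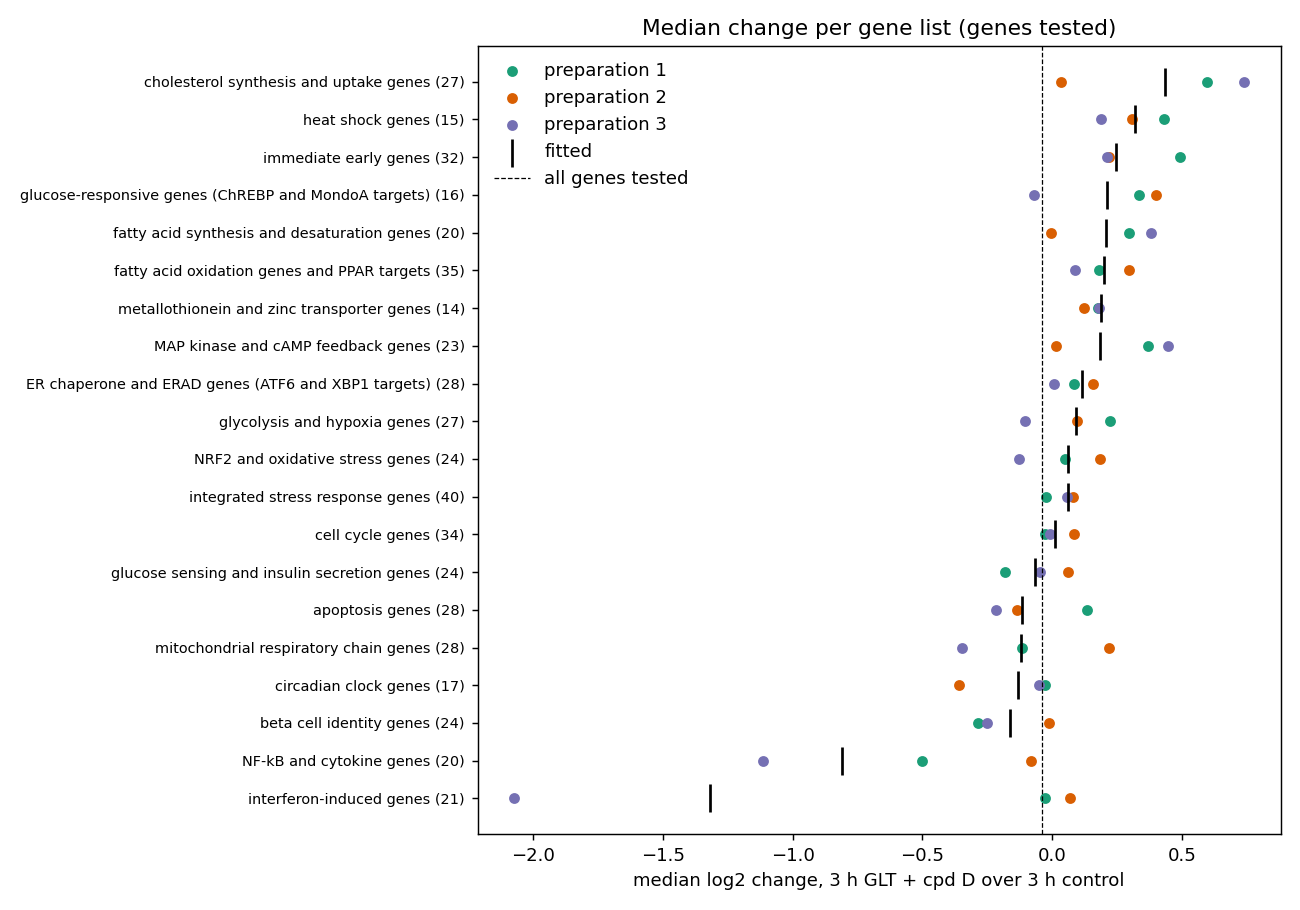
Median log2 change of GLT + cpd D over control for each pathway list, with the number of genes tested in parentheses; dots are the median within each preparation, the bar is the fitted median and the dashed line the median of all genes tested. The interferon-induced and NF-kB lists reach below -1 in preparation 3 alone, and the cholesterol list lies near 0 in preparation 2 and above 0.5 in preparations 1 and 3.

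Among the 16 tested glucose-responsive genes, targets of ChREBP and MondoA, Txnip and Rgs16 passed, 6 were higher in all 3 preparations and 0 lower. DESeq2 called 5 of the 16, all higher, and the unadjusted p was below 0.05 for 5 higher and 0 lower. The list median was 0.21, with 0.33, 0.40 and -0.07 within preparations 1, 2 and 3, and 0.07 without preparation 1. Arrdc4, the arrestin-fold relative of Txnip, had 71.5, 39.1 and 39.1 CPM in GLT + cpd D and 22.1, 18.1 and 21.7 CPM in control. Its groups did not overlap, and the adjusted p was 0.157.

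Of the 35 tested genes of fatty acid oxidation and PPAR targets, Cpt1a alone passed. In all 3 preparations 14 were higher and 3 lower, the median was 0.20, or 0.10 without preparation 2, and 7 had an unadjusted p below 0.05, all higher. Eci2, an isomerase that prepares unsaturated fatty acids for oxidation, had 16.2, 20.4 and 17.3 CPM in GLT + cpd D and 11.4, 13.9 and 13.6 CPM in control, with an adjusted p of 0.396. Its groups did not overlap. Angptl4, a secreted inhibitor of lipoprotein lipase and a PPAR target, had 2.20, 4.30 and 7.41 CPM in GLT + cpd D and 0.188, 0.950 and 4.02 CPM in control, higher in each preparation but with overlapping groups and an adjusted p of 0.453.

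Genes of cholesterol synthesis and uptake had the highest median of the 20 pathway lists, 0.43. None of the 27 passed in edgeR. The unadjusted p was below 0.05 for 10, all higher, DESeq2 called 6, all higher, and limma on variance-stabilized values called 1. In preparations 1, 2 and 3, 22, 16 and 22 of the 27 were higher with GLT + cpd D, against 46.1%, 49.5% and 46.9% of all genes tested. The medians were 0.60, 0.03 and 0.74, and the fitted median was 0.68 without preparation 2 and 0.27 without preparation 3. The summed level was 5150, 3420 and 5001 CPM in GLT + cpd D and 2509, 3137 and 2235 CPM in control, so that preparation 2 had the lowest sum with GLT + cpd D and the highest in control. Preparation 2 also had the lowest share of Rn45s in both groups, and the part of RNA quality in this difference between preparations was not tested.

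**Figure D4:**
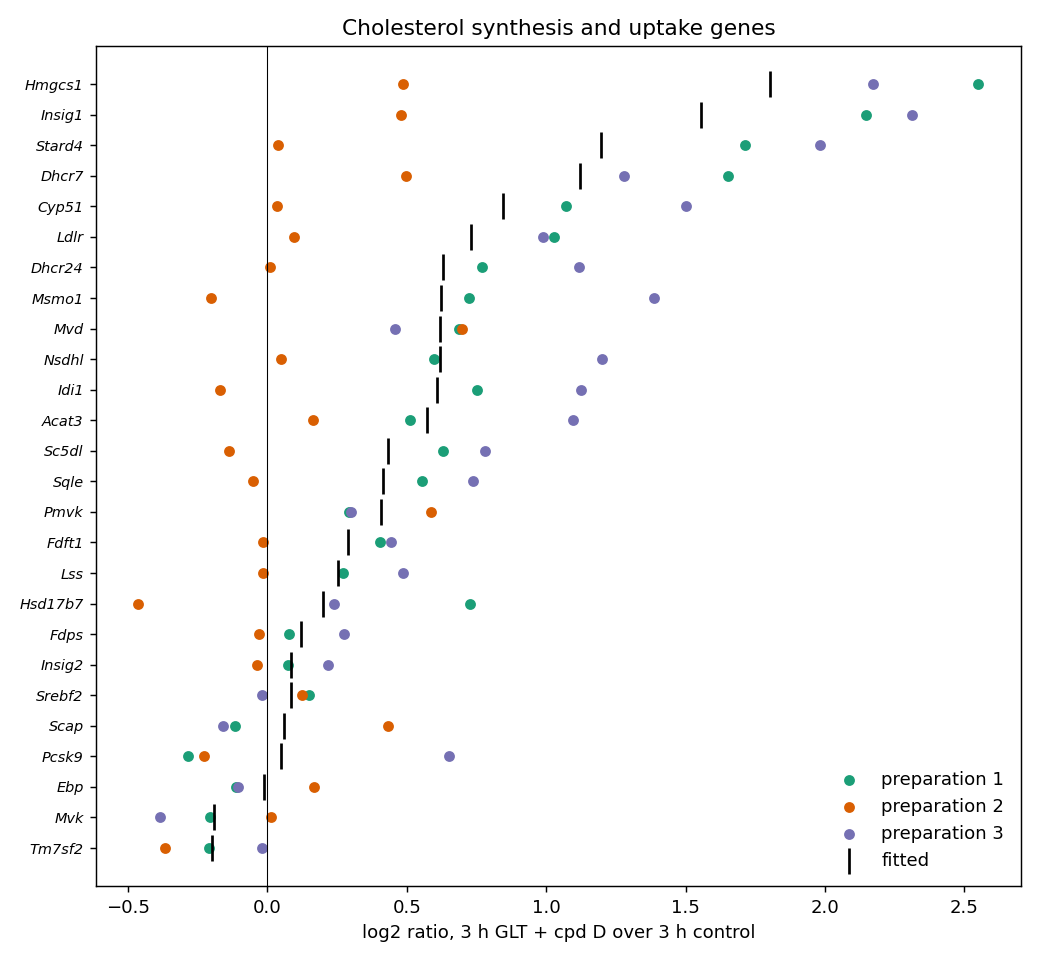
Log2 ratio of GLT + cpd D over control within each preparation (dots) and the fitted change (bar) for tested genes of cholesterol synthesis and uptake, ordered by fitted change. Preparations 1 and 3 lie above preparation 2 for the genes at the top, such as Hmgcs1 and Insig1.

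The members with the lowest p in that list include enzymes and a brake of the pathway. Insig1, which retains the SREBP escort protein in the endoplasmic reticulum and is itself an SREBP target, had 856, 549 and 721 CPM in GLT + cpd D and 193, 394 and 145 CPM in control. Its groups did not overlap, and the log2 change was 1.55 ± 0.31 (SE) with an adjusted p of 0.0781. Hmgcs1, the cytosolic synthase at the start of the mevalonate pathway, had 398, 181 and 413 CPM in GLT + cpd D and 67.9, 129 and 91.7 CPM in control, with a log2 change of 1.80 ± 0.37 (SE) and an adjusted p of 0.0971. In Hmgcs1 preparation 2 had the lowest level with GLT + cpd D and the highest in control. Dhcr7, which makes cholesterol in the last step from 7-dehydrocholesterol, had 57.0, 58.5 and 49.4 CPM in GLT + cpd D and 18.1, 41.4 and 20.3 CPM in control, with an adjusted p of 0.0781.

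None of the 20 tested genes of fatty acid synthesis and desaturation passed in edgeR, where 3 had an unadjusted p below 0.05, all higher. DESeq2 called 2, both higher, and limma called 0. The medians within preparations 1, 2 and 3 were 0.30, 0.00 and 0.38, with preparation 2 again the lowest. Mid1ip1, an activator of acetyl-CoA carboxylase, had 211, 280 and 149 CPM in GLT + cpd D and 121, 145 and 89.2 CPM in control, without overlap by a narrow margin and with an adjusted p of 0.117. Lpin1, a phosphatidate phosphatase, had 113, 44.8 and 76.6 CPM in GLT + cpd D and 35.6, 27.5 and 27.8 CPM in control, without overlap and with an adjusted p of 0.251.

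Immediate early genes are transcribed within minutes of a calcium, cAMP or growth factor signal. None of the 32 tested passed in edgeR, 5 had an unadjusted p below 0.05, all higher, DESeq2 called 2 and limma 0. In all 3 preparations 15 were higher and 2 lower, and the median was 0.25, with 0.06 without control replicate 1 and 0.57 without control replicate 3. Nr4a3, an orphan nuclear receptor, had 54.3, 10.1 and 35.0 CPM in GLT + cpd D and 3.17, 8.96 and 6.25 CPM in control, with a log2 change of 2.29 ± 0.56 (SE) and an adjusted p of 0.183. The lowest GLT + cpd D library, preparation 2, was barely above the highest control, which was also preparation 2. Klf4, a Krüppel-like factor, had 12.1, 10.5 and 27.9 CPM in GLT + cpd D and 3.39, 8.19 and 5.49 CPM in control, with an adjusted p of 0.208.

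Among 23 genes that MAP kinase and cAMP signalling induce and that feed back on it, Rgs16 alone passed, and 4 were called by DESeq2, all higher. Crem, which codes for cAMP-responsive activators and repressors, had 343, 325 and 378 CPM in GLT + cpd D and 156, 228 and 143 CPM in control. Its groups did not overlap and the adjusted p was 0.251. Gem, a small GTP-binding protein that restrains calcium channels, had 294, 220 and 241 CPM in GLT + cpd D and 184, 145 and 127 CPM in control, also without overlap, with an adjusted p of 0.262.

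Stress pathways were covered by 5 lists, and none of their genes passed in edgeR. Of 28 ER chaperone and ERAD genes, 0 had an unadjusted p below 0.05, and the median was 0.12. Of 40 genes of the integrated stress response 3 were higher and 1 lower at an unadjusted p below 0.05, with a median of 0.06. Of 24 NRF2 and oxidative stress genes it was 3 higher and 0 lower, with a median of 0.06 that ran from -0.12 to 0.12 over the alternatives, and of 14 metallothionein and zinc transporter genes 0, with a median of 0.19. Of 15 heat shock genes it was 2 higher and 0 lower, with 9 higher in all 3 preparations and a median of 0.32, and the median was 0.17 without GLT + cpd D replicate 2. DESeq2 and limma called 0 genes in each of the 5 lists. Dnajb1, a co-chaperone of HSP70, had 79.2, 93.2 and 70.4 CPM in GLT + cpd D and 28.3, 67.3 and 40.7 CPM in control, without overlap and with an adjusted p of 0.437. Srxn1, which restores oxidized peroxiredoxins and is an NRF2 target, had 229, 210 and 284 CPM in GLT + cpd D and 134, 146 and 119 CPM in control, without overlap and with an adjusted p of 0.299. Herpud1, an ERAD component, had 282, 466 and 224 CPM in GLT + cpd D and 216, 234 and 232 CPM in control, with overlap and an adjusted p of 0.789.

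Genes of beta cell identity showed no call at 3 h. None of the 24 tested passed in edgeR, 3 had an unadjusted p below 0.05, all lower, and DESeq2 and limma called 0. In all 3 preparations 1 was higher and 8 lower, and the median was -0.16, with -0.29, -0.01 and -0.25 within preparations 1, 2 and 3 and a range from -0.28 to -0.09 over the alternatives. Iapp, the islet amyloid polypeptide secreted with insulin, had 9936, 10891 and 9964 CPM in GLT + cpd D and 12598, 12753 and 15590 CPM in control. Its groups did not overlap, and the log2 change was -0.43 ± 0.19 (SE) with an adjusted p of 0.721. Kcnj11, the pore of the ATP-sensitive potassium channel, had 112, 139 and 126 CPM in GLT + cpd D and 227, 131 and 205 CPM in control, with overlap and an adjusted p of 0.49. Of the 24 genes of glucose sensing and insulin secretion, 0 passed in edgeR, 2 had an unadjusted p below 0.05, both lower, and DESeq2 and limma called 0.

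The hormone genes did not pass and varied widely between preparations. Ins1 had 60466, 186473 and 106384 CPM in GLT + cpd D and 56381, 239838 and 141735 CPM in control, a log2 change of -0.32 ± 0.62 (SE; 95% interval -1.63 to 1.00). Ins2 had 33607, 98895 and 39866 CPM in GLT + cpd D and 45772, 99862 and 90184 CPM in control, a log2 change of -0.67 ± 0.56 (SE; 95% interval -1.87 to 0.53). Ins1 and Ins2 are closely related genes, and how reads were divided between them was not tested. Preparation 1 was the lowest in Ins1 in both groups. Sst, the somatostatin of delta cells, had 394, 1369 and 363 CPM in GLT + cpd D and 424, 984 and 805 CPM in control, with a 95% interval of the log2 change from -1.45 to 0.65. Ppy, the pancreatic polypeptide, had 434, 1277 and 317 CPM in GLT + cpd D and 541, 1314 and 1887 CPM in control, with an interval from -2.60 to 0.03. For each of these genes the interval includes 0 and also falls of more than 1 log2 unit, so a fall of that size is not excluded here.

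Circadian clock genes had fitted differences of both signs. None of the 17 tested passed in edgeR, 3 were higher and 3 lower at an unadjusted p below 0.05, DESeq2 called 1 higher and 1 lower, and limma called 0. Beside Cry2, given above, Dbp, an output factor of the clock, had 11.7, 17.2 and 11.8 CPM in GLT + cpd D and 28.6, 30.9 and 34.7 CPM in control, with a log2 change of -1.22 ± 0.26 (SE) and an adjusted p of 0.105. Nr1d1, the repressor REV-ERB alpha, had 16.5, 20.8 and 22.2 CPM in GLT + cpd D and 35.6, 30.7 and 32.7 CPM in control, with an adjusted p of 0.567. In both the groups did not overlap. Nfil3, a repressor at the sites that Dbp activates, had 28.4, 33.3 and 51.5 CPM in GLT + cpd D and 14.3, 25.4 and 29.3 CPM in control, higher in each preparation but with overlap and an adjusted p of 0.488.

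The lowest medians were those of the interferon-induced genes, -1.32 over 21 genes, and of NF-kB and cytokine genes, -0.81 over 20. Within preparations 1, 2 and 3 they were -0.03, 0.07 and -2.07 for the first and -0.50, -0.08 and -1.11 for the second. In all 3 preparations 6 of the 21 and 11 of the 20 were lower, against 15.7% of all genes tested. Control replicate 3 was the highest of the 6 libraries for 21 of 21 interferon-induced genes (100%) and 18 of 20 NF-kB and cytokine genes (90%), against 23.2% of all genes tested. Without it, but with GLT + cpd D replicate 3 kept, the medians were 0.49 and 0.46. That was the 1 of 20 alternatives in which the NF-kB and cytokine median was above 0. None of the genes in either list passed in edgeR, where 1 interferon-induced gene and 2 NF-kB and cytokine genes had an unadjusted p below 0.05, all lower, and DESeq2 and limma called 0. Cxcl10, a chemokine that interferons induce, had 9.99, 8.03 and 365 CPM in GLT + cpd D and 15.7, 8.04 and 3828 CPM in control. Preparation 3 was high in both groups, and control replicate 3 was the highest by far. Rsad2, the antiviral enzyme viperin, had 9.45, 8.90 and 43.2 CPM in GLT + cpd D and 7.69, 11.0 and 238 CPM in control. Ccl2, a chemokine for monocytes, had 2.74, 2.50 and 56.5 CPM in GLT + cpd D and 7.10, 4.28 and 153 CPM in control, lower in each preparation with an adjusted p of 0.769. Il23a, the p19 subunit of interleukin 23, had 3.59, 5.65 and 6.80 CPM in GLT + cpd D and 8.20, 6.07 and 16.1 CPM in control, with an adjusted p of 0.329.

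**Figure D5:**
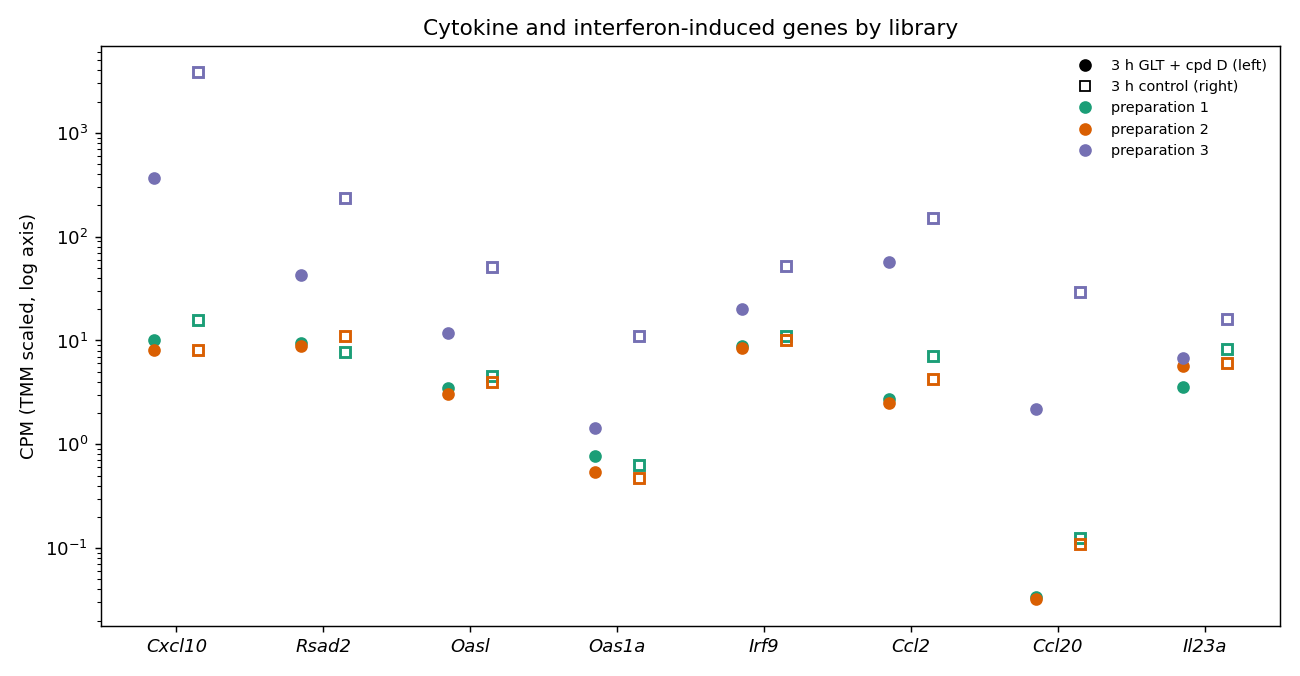
Level of 8 cytokine and interferon-induced genes in each library, in CPM on a log axis; filled circles on the left are GLT + cpd D, open squares on the right are control, and colours mark the preparation. Control replicate 3 is the highest library for all 8 genes, from 11.1 CPM for Oas1a to 3828 CPM for Cxcl10.

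In the other lists 0 genes passed in edgeR. Of 34 cell cycle genes, Ccnd1, the cyclin that starts the cell cycle, had 372, 378 and 224 CPM in GLT + cpd D and 212, 270 and 155 CPM in control, with an adjusted p of 0.208, and was the 1 gene of its list with an unadjusted p below 0.05. Of 28 apoptosis genes 2 had an unadjusted p below 0.05, Bmf and Mcl1, both higher. Bmf, with the smaller p, had 9.14, 3.50 and 4.49 CPM in GLT + cpd D and 3.80, 3.03 and 1.26 CPM in control. Its groups overlapped and the adjusted p was 0.538. Mcl1, which protects mitochondria from permeabilization, had 116, 128 and 218 CPM in GLT + cpd D and 87.9, 116 and 126 CPM in control, with an adjusted p of 0.621. The 27 glycolysis and hypoxia genes and the 28 respiratory chain genes had 0 at an unadjusted p below 0.05, with medians of 0.09 and -0.12. Neither median kept its sign over the alternatives, which ran from -0.11 to 0.30 for glycolysis and hypoxia genes and from -0.24 to 0.08 for respiratory chain genes. Within preparations, 4, 23 and 3 of the 28 respiratory chain genes were higher with GLT + cpd D, so preparation 2 again went its own way. DESeq2 called 1 cell cycle gene, which was higher, and 0 in the other 3 lists, and limma 0 in all 4.

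Markers of other cell types were compared by their summed level. Macrophage genes summed to 58.4, 95.7 and 70.5 CPM in GLT + cpd D and 60.2, 80.8 and 129 CPM in control, highest in control replicate 3, the library with the high interferon-induced genes. Acinar genes summed to 6.06, 15.1 and 8.62 CPM in GLT + cpd D and 9.01, 25.2 and 10.5 CPM in control, low in all 6 libraries and highest in preparation 2. Duct genes summed to 845, 1004 and 982 CPM in GLT + cpd D and 669, 685 and 1161 CPM in control. Genes of stellate cells and fibroblasts summed to 1166, 1113 and 943 CPM in GLT + cpd D and 1212, 1026 and 1192 CPM in control, and endothelial genes to 269, 281 and 249 CPM in GLT + cpd D and 302, 262 and 324 CPM in control. Delta cell genes summed to 487, 1461 and 442 CPM in GLT + cpd D and 520, 1085 and 901 CPM in control, and PP cell genes to 588, 1536 and 442 CPM in GLT + cpd D and 661, 1506 and 2060 CPM in control. Schwann cell, red cell and lymphocyte genes summed to less than 22 CPM in every library. In each of these 10 lists the summed levels overlapped between the groups and 0 genes passed in edgeR. At an unadjusted p below 0.05 there was 1 lower delta cell gene, 1 lower acinar gene and 1 higher red cell gene, and DESeq2 and limma called 0. The part of these cell types in the results was not tested.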

How the data were processed

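The authors deposited raw counts of reads per gene, 17025 genes plus 5 entries that name no gene, which entered neither library sizes nor tests. The reads that fell in no gene were 15.1% to 18.7% of all entries in the 6 libraries, ambiguous reads 0.562% to 2.31% and non-unique alignments 5.35% to 6.72%. Per the labels' protocols and the submitters' processing notes, paired 100 bp reads were aligned by TopHat2 2.0.3, which runs Bowtie2 (2.0.0), against the rn5 genome, and HTSeq counted them, and the authors analysed variance-stabilized values in a mixed model. The annotation and the strand setting are not given in the sources used here, so overlapping and antisense genes, and near-identical copies, are uncertain.

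From the counts, edgeR 4.0.16 (R 4.3.3) fitted all 21 libraries with a term for each of the treatment groups as numbered in the table and for the preparation, after TMM scaling and edgeR's default filter on low counts, which kept 12576 genes. The quasi-likelihood test gave the adjusted p, and the SE is the log2 change divided by the square root of F. Log2 ratios within a preparation used a prior count of 2. The preparations are the pairs because the islets of each were pooled and then divided, and deviations from the group mean correlated at 0.627, 0.488 and 0.600 between the libraries of the same preparation. No 2 libraries of a group agreed within sampling noise. The pooled islets of separate isolations make the replicates. The p-values measure the spread left after the group and preparation terms, estimated over all 21 libraries with 11 residual degrees of freedom. DESeq2 1.42.0, limma 3.58.1, other scalings and filters, other sets of libraries and leaving out each library were alternatives, and the fit was tested on simulated data.

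The genes named are all those that passed, the next by unadjusted p to 30 in all with at least 5 CPM in 1 group and 1 direction in every preparation, members of each pathway list among the 4 with the smallest p, the hormone genes, and others said to be chosen after their values were seen. A few genes that this rule names are not reported here. Of 631 list entries 603 matched the table. The comparison, the members and the lists were chosen with earlier results of these data known, so the lists give no independent support. Promoters came from RefSeq, build GRCr8, by gene ID.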

Additional observations from a re-analysis of the deposited data

Results flagged for a closer look

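The 3 h GLT + cpd E library of preparation 2, a single library with 27 mM glucose, 300 µM palmitate and cpd E at 300 nM for 3 h, entered no comparison. No test was made on it, since it has no replicate. In it Txnip, Klf11, Fbxo34, Cpt1a, Qrfpr, Coq10b and Gpr6 lay above the highest of the 3 control libraries. All of these were also above the level of 3 counts. The share of all genes tested that did so was not computed. The 12 genes that rose with cpd D were chosen as higher than these same controls. Values above control in this library are therefore no measure of likeness between cpd E and cpd D. Rgs16 at 30.4 CPM, Ttc25 at 1.21 CPM and Ssfa2 at 16.4 CPM were below their highest controls, 33.2, 1.35 and 16.6 CPM. Prok2 at 0.0673 CPM and Atp12a at 0.101 CPM did not lie above the level of 3 counts. Txnip had 82.9 CPM in that library, against 50.3 CPM in the highest control, the control of the same preparation, while the GLT + cpd D library of preparation 2 had 922 CPM. Klf11 had 29.2 CPM with cpd E, Fbxo34 44.0 CPM and Cpt1a 45.1 CPM, beside 29.7, 51.1 and 52.0 CPM for these genes with cpd D in preparation 2. Coq10b had 356 CPM and Gpr6 95.1 CPM with cpd E, beside 226 and 137 CPM with cpd D. Qrfpr, which had no count in any control, had 1.58 CPM with cpd E and 0.835 CPM with cpd D in the same preparation.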

How the results depend on the processing

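The count of 13 genes was 13 with RLE scaling, with scaling computed without Ins1, Ins2 and Rn45s, and with no filter on low counts, and 11 with a minimum of 5 CPM in 3 libraries. It was 5 with library size alone, 108 in DESeq2, 20 in limma with a random preparation, 3 over the 15 libraries with undisputed labels, 9 over the 6 libraries compared, and 25 without the 24 h GLT + cpd E library of preparation 1. All 13 genes were among those called by DESeq2 and by limma. Leaving out 1 preparation or 1 compared library gave 1 to 103 genes. It was 103 without preparation 2 and 1, Txnip, without preparation 1 or without preparation 3. The cause was not tested. The pairing by preparation was part of the main fit, and with no replicate block 10 genes passed.

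None of the 13 genes changed direction under any alternative, and the number of alternatives they passed under ran from 6 of 19 for Qrfpr to 20 of 20 for Txnip. Some genes that had not passed changed sign. When 1 preparation or 1 compared library was left out, the log2 change ran from -5.001 to 0.46 for Ccl20, -1.78 to 0.021 for Oasl, -2.16 to 0.36 for Oas1a, -2.18 to 0.49 for Rsad2, -3.34 to 0.84 for Cxcl10, -1.03 to 0.14 for Ins2, -0.78 to 0.42 for Sst, -0.90 to 0.39 for Ins1 and -0.26 to 0.28 for Gcg. In each of these 9 genes the highest value was that without 3 h control replicate 3. Gcg was at 0.000796 with library size alone. The spread of the group differences over only 3 preparations limits the precision of every value. At this depth a level under 3 counts, 0.0931 to 0.124 CPM, cannot be told from 0.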
